A study of Homo sapiens with 3 samples.

Results

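The genes examined here were the human WNT ligands, their Frizzled receptors and the co-receptors LRP5 and LRP6. This group was picked with earlier results of these data known. Its genes were taken by symbol, as every protein-coding gene named WNT or FZD with a number, plus LRP5 and LRP6. The rule gave 31 of 19856 protein-coding genes on the nuclear chromosomes. 19 of them are ligand genes, 10 are Frizzled genes and 2 are co-receptor genes. ETS1 ChIP-Seq had been carried out in untreated SCC25, an established squamous carcinoma cell line of the tongue that the study used as a mesenchymal model of head and neck squamous cell carcinoma. The C20 antibody against ETS1 was used in 2 ChIP samples, and 501A, another antibody against it, in 1. The 3 samples were merged by the authors into 1 consensus list of 26970 ETS1 peaks, of which 26961 lie on the nuclear chromosomes. Only the position of each peak is listed, without its height or its signal in any of the samples. No spread between samples could therefore be computed, and no comparison below has a test. Intervals of shares are 95% Wilson intervals and cover counting error only, and the read depth behind a peak is unknown. A single cell line was examined, its identity could not be checked against marker genes from peak positions, and whether any of the 31 genes is expressed in it was not analysed here.

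WNT proteins are lipid-modified secreted glycoproteins that act over short distances. They bind the cysteine-rich domain of Frizzled receptors, which span the membrane repeatedly, and in the β-catenin branch of the pathway they join a Frizzled to LRP5 or LRP6. The destruction complex then stops degrading β-catenin, which enters the nucleus and acts with TCF and LEF factors, while other ligand and receptor combinations act on cell polarity and movement without β-catenin. In stratified epithelia the pathway is best known for hair follicle formation and for the upkeep of progenitor cells. ETS1, the founding member of the ETS family, recognises DNA with a GGAA core.

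A peak was assigned to a gene when its midpoint lay in the basal domain, from 5 kb upstream to 1 kb downstream of the start (TSS) of the canonical transcript. By this rule 15 of the 31 genes carried a peak, or 48.4% (interval 32.0 to 65.2), beside 56.0% of all protein-coding genes. Each of the 15 had a single peak there. 7 of 10 Frizzled genes were among them (70.0%, interval 39.7 to 89.2), as were 7 of 19 ligand genes (36.8%, interval 19.1 to 59.0) and LRP6. The intervals of the ligand and the Frizzled shares overlapped, and both held the genome-wide share. The 15 genes were FZD1, FZD4, FZD5, FZD6, FZD7, FZD8, FZD10, LRP6, WNT2B, WNT3, WNT3A, WNT4, WNT7A, WNT7B and WNT10B. When only the first 13485 of the 26970 lines of the list were used, 5 genes were left (FZD1, FZD6, FZD8, LRP6 and WNT7B), or 16.1%, beside 36.4% of all genes.

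The sequence under these peaks is shown for 7 of the 8 genes that were tried. Each had an ETS core in a window free of annotated untranslated exons. The genes tried had the basal domain peaks nearest the TSS, apart from FZD6. FZD6 was not tried, although its peak midpoint lay 87 bp after the TSS. Each window is 200 bases of GRCh37 (hg19) read 5′ to 3′ on the strand of the gene, and capitals mark an ETS core, which was taken as AGGAAG on either strand, or as the same hexamer with C for its first base, A for its last base, or both. The windows were picked for holding a core, so its presence in them is no finding.
WNT10B (chr12:49365626-49365825, minus strand): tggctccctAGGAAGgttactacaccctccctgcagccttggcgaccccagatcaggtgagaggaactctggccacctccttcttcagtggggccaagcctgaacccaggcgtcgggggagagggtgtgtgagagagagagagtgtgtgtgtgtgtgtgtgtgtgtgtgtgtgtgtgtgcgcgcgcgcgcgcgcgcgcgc
LRP6 (chr12:12419408-12419607, minus strand): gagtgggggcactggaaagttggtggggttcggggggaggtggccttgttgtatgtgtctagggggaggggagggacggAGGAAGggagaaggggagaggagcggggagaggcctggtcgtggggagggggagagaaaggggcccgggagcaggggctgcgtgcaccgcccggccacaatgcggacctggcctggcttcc
WNT2B (chr1:113051887-113052086, plus strand): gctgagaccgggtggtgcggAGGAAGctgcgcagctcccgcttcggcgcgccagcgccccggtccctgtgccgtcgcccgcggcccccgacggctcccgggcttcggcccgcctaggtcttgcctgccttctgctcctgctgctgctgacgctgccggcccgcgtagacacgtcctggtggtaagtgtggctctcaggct
FZD8 (chr10:35931226-35931425, minus strand): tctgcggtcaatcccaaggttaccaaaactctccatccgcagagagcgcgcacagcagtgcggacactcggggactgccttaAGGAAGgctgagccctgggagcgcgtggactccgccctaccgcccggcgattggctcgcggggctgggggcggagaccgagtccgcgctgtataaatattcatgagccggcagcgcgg
FZD10 (chr12:130646505-130646704, plus strand): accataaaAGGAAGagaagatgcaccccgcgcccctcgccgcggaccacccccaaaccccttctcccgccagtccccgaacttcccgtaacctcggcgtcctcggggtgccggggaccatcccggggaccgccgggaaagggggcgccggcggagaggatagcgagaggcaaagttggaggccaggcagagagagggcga
FZD5 (chr2:208633789-208633988, minus strand): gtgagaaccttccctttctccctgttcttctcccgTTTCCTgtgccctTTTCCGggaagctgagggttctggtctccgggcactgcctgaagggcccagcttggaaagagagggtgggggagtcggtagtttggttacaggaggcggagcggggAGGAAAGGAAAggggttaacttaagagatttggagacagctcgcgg
FZD7 (chr2:202898075-202898274, plus strand): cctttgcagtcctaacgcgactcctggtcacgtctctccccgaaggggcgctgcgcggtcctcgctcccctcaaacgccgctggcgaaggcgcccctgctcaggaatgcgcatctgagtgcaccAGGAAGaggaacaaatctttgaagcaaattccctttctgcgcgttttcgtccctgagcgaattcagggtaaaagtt
The FZD5 window, which starts 642 bp after the TSS, holds 4 matches, 2 of them overlapping in one run of purines. The WNT10B window ends in alternating TG and CG bases shortly before the TSS. The FZD8 window ends 2 bp before the TSS.

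Among the ligands, the peak nearest a TSS belonged to WNT10B, a ligand known for promoting bone formation and holding back fat cell formation. Its midpoint lay 2 bp from the TSS and it was 769 bp wide. WNT2B, WNT7A and WNT7B had their peaks just inside the gene. The midpoint was 216 bp after the TSS for WNT2B, in the first exon, with a width of 1592 bp. It was 289 bp after the TSS for WNT7B, a ligand of lung and placental development, where the peak spanned 5176 bp, the widest of all peaks near the 31 genes. It was 627 bp after the TSS for WNT7A, which patterns the dorsal limb, in a peak of 2894 bp. These peaks covered the TSS, as did that of WNT10B.

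WNT4, WNT3A and WNT3 had peaks that did not reach the TSS. The peak of WNT4, needed in kidney and ovary development, had its midpoint in intron 1, 691 bp after the TSS, and began 211 bp after it. That of WNT3A, a standard ligand of the β-catenin branch, lay 2010 bp upstream. That of WNT3, a ligand needed for gastrulation, lay 3915 bp upstream and was 636 bp wide, the narrowest of the 15. For WNT3 this position is still within the gene as annotated, since longer transcripts start further upstream.

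The 7 Frizzled peaks lay closer together in distance. That of FZD6, a receptor known from planar cell polarity and hair patterning, had its midpoint 87 bp after the TSS. The midpoints for FZD8 and FZD5 lay 276 and 371 bp after it. The peak of FZD10 was centred 314 bp upstream and that of FZD7, a receptor of epithelial stem cells, 401 bp upstream. FZD1 had its midpoint in its single exon, 739 bp after the TSS, with a peak of 2156 bp that covered the TSS. FZD4, the receptor that also binds norrin in retinal vessels, was the only Frizzled whose peak missed the TSS, ending at -146 bp. The LRP6 peak, 1281 bp wide, had its midpoint 50 bp after the TSS. In all, 11 of the 15 peaks covered the TSS of their gene.

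All 15 peaks lay nearer to the TSS of their WNT, FZD or LRP gene than to that of any other protein-coding gene. Among transcripts of every kind this held for 11 of the 15. The FZD10 peak was centred 73 bp from the start of FZD10-AS1 and the FZD4 peak 30 bp from that of FZD4-DT. Unnamed genes start 83 bp from the midpoint of the FZD7 peak and 444 bp from that of WNT4. A peak between neighbouring starts cannot be given to either from its position.

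Some genes fell just outside the basal domain. WNT16 had a peak centred 1005 bp after its canonical TSS and WNT9A one 1083 bp after it. LRP5, the co-receptor known from inherited changes in bone mass, had a peak of 3514 bp centred 1250 bp after the TSS, in intron 1. WNT1, best known from midbrain development, had a peak of 4089 bp centred at 1603 bp. The last 3 of these peaks covered the TSS while their midpoint lay past the limit. On the other side, the nearest peak of WNT6 lay 6748 bp upstream. When any overlap with the domain was enough, LRP5, WNT1, WNT9A and WNT16 joined and 19 genes had a peak (61.3%, beside 57.2% of all genes).

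Closer to the start the counts were lower. A midpoint within 500 bp of the TSS was found for 9 of 31 genes (29.0%, interval 16.1 to 46.6), beside 46.8% of all genes. 5 of the 9 were Frizzled genes, 3 were ligand genes and 1 was LRP6. The count was sensitive to where the peak was placed. 17 genes had a peak that overlapped this window, for which the share of all genes was not computed. 16 genes (51.6%) had a midpoint within 1500 bp, where the share of all genes was 54.2%. A peak covered the TSS itself in 14 of 31 genes (45.2%), beside 52.3% of all genes.

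**Figure D1:**
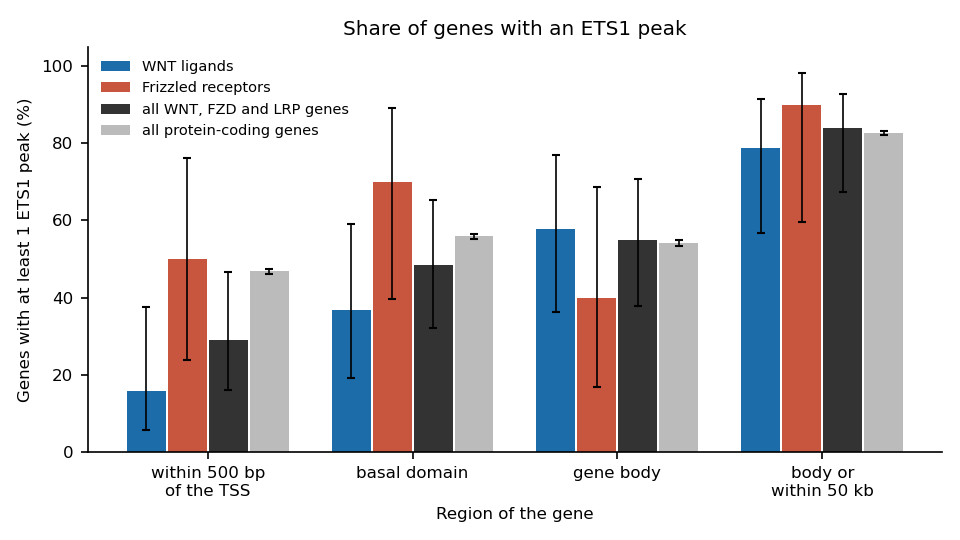
Percentage of genes with at least 1 ETS1 peak by each rule for the ligand genes, the Frizzled genes, all 31 WNT, FZD and LRP genes and all protein-coding genes, with 95% Wilson intervals as error bars. For the basal domain 70.0% of the Frizzled genes and 36.8% of the ligand genes had a peak, with intervals that overlap and both hold the 56.0% of all genes.

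The peaks were then counted over the whole of each gene and 50 kb on both sides. 17 of 31 genes had a peak in the gene body (54.8%, interval 37.8 to 70.8), beside 54.1% of all genes, and 26 of 31 had a peak in the body or within 50 kb (83.9%, interval 67.4 to 92.9), beside 82.6%. The median was 3 peaks a gene, as over all genes. In the gene body the order of the classes was the other way round from the basal domain: 11 of 19 ligand genes (57.9%) and 4 of 10 Frizzled genes (40.0%) had a peak. Frizzled genes are mostly short, with a median length of 5.74 kb against 26.7 kb for the ligand genes. Without the first 1 kb after the TSS 12 genes had a peak in the body, and no Frizzled gene was among them. The share of all genes by this rule was not computed.

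WNT7B had the most peaks of the 31 genes. 5 lay in the gene body and 13 in the body or within 50 kb, and all 13 were nearer to its TSS than to any other protein-coding start. WNT7B was the highest of the 31 genes, and 1.48% of all genes had at least as many peaks in this window. The midpoints ran from 36510 bp upstream to 80288 bp downstream of the TSS, with 4 in introns and the wide peak over the TSS. Its paralogue WNT7A had 7 peaks, 4 of them in the gene body, and was likewise the nearest gene to each. These peaks lay in introns 1 and 3, 10734 and 15464 bp upstream, and 78045 bp downstream of the TSS.

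WNT7A and WNT7B also held the earliest of the peaks in the list. The peak in intron 3 of WNT7A stood at line 120, was 2643 bp wide and was centred 26825 bp after the TSS. The peak in intron 1 of WNT7B stood at line 334, was 1735 bp wide and was centred 7666 bp after the TSS. A peak 30275 bp upstream of WNT7B followed at line 1048. The sources used here do not say what the order of the lines stands for. The central sequence of the 2 intron peaks is given on the strand of the gene with ETS cores in capitals, and both were picked after their place in the list was seen.
WNT7A (chr3:13894642-13894841, minus strand): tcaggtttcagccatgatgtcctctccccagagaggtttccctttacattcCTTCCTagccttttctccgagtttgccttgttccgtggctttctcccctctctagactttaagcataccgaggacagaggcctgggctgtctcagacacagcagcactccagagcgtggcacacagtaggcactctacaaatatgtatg
WNT7B (chr22:46365279-46365478, minus strand): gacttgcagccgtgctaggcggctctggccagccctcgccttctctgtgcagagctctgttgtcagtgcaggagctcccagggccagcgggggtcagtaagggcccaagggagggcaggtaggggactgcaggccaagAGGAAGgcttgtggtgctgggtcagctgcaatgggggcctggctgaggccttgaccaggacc
In the WNT7A window the core is read on the opposite strand, and in the WNT7B window on the strand of the gene.

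**Figure D2:**
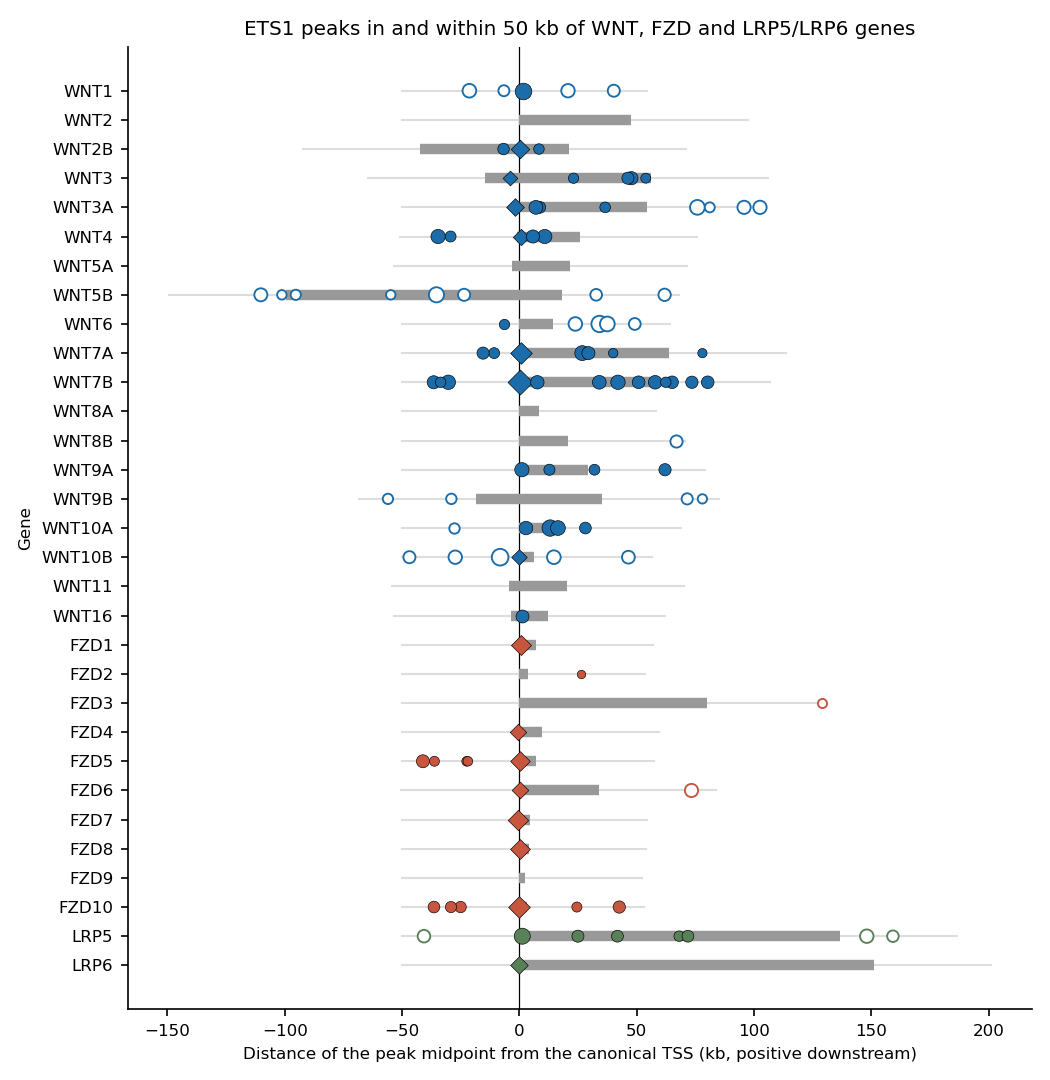
Midpoints of the ETS1 peaks in and within 50 kb of each gene, in kb from the canonical TSS with downstream to the right. Thick grey bars are gene bodies, pale lines the 50 kb flanks, diamonds basal domain peaks, filled circles other peaks nearest to that gene and open circles peaks nearer to another protein-coding start, with larger symbols for wider peaks; WNT7B holds 13 peaks and 5 genes hold none.

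Other ligand genes with several peaks in the body were WNT3 with 5, WNT5B with 4, and WNT2B, WNT3A, WNT4 and WNT10A with 3 each. A count of at least 5 was reached by 2.93% of all genes. The peaks of WNT3 outside its basal domain lay in introns 1, 2 and 4, between 23120 and 53893 bp after the TSS. WNT4 had peaks in intron 1 at 5797 and 10846 bp after the TSS besides the one near it. WNT3A had peaks in intron 1 at 7072 and 8694 bp after the TSS and 1 in intron 2.

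WNT10A, a ligand of tooth and hair development, had no peak in its basal domain. 3 peaks lay inside the gene, the widest of them 3845 bp across and centred 13169 bp after the canonical TSS. Another, centred 2827 bp after that TSS, lay 171 bp from the start of another WNT10A transcript. Counting every annotated start added WNT10A and WNT5B to the genes with a basal domain peak. By that rule 17 of 31 genes had one (54.8%), beside 60.6% of all genes.

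WNT5B and LRP5 lie among close neighbours. WNT5B had 8 peaks in its window, 4 of them in the gene body. For all 8 the nearest canonical start of a protein-coding gene was that of FBXL14 or ADIPOR2, but among the starts of all transcripts that of a WNT5B transcript was nearest for 5 of the 8, the closest of them at 237 bp. LRP5 also had 8, of which 5 lay in the gene, in introns 1, 2 and 5, with LRP5 as the nearest gene. The other 3 were nearest to C11orf24 or PPP6R3. LRP6 had no other peak than that at its TSS, although its gene body is 151 kb long.

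Among the Frizzled genes, FZD10 and FZD5 had further peaks. FZD10 had 6 in all, at 3 sites upstream and 2 sites downstream besides its TSS, and none in the short gene body. FZD5 had 4 upstream peaks between 21922 and 41104 bp from its TSS. FZD1, FZD4, FZD7 and FZD8 had their basal domain peak and no other. The second peak of FZD6 lay 356 bp from the start of CTHRC1. FZD2 had 1 narrow peak of 269 bp, 26076 bp downstream of its TSS, and the only peak near FZD3 lay inside EXTL3.

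5 genes had no peak in the body or within 50 kb, where 83.9% of the 31 genes and 82.6% of all genes had one. The 5 were FZD9 and the ligand genes WNT2, WNT5A, WNT8A and WNT11. WNT5A and WNT11 are the ligands best known for acting on cell movement without β-catenin. The nearest peak was 51109 bp from the TSS of WNT8A and 88459 bp from that of FZD9. It was 137210 bp away for WNT5A, 238725 bp for WNT11 and 369244 bp for WNT2. WNT8B had 1 peak in its window, 276 bp from the start of NDUFB8. Paralogues differed in their counts, as 0 peaks for WNT2 stood beside 3 for WNT2B, and 0 for WNT5A beside 8 for WNT5B. The windows differ in size, as WNT5B is 117 kb long and WNT5A 24.8 kb. All 8 peaks of WNT5B were nearer to the canonical start of another gene.

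Altogether 96 distinct peaks lay in or within 50 kb of the 31 genes. By the canonical starts of protein-coding genes, 72 of them were nearest to one of these genes and 24 to another gene, and 14 of the 24 were within 1500 bp of the other start. 62 of the 96 lay over 5 kb from every protein-coding TSS. The windows covered 3.94 Mb at 2.44 peaks per 100 kb, beside 1.29 per 100 kb over the windows of all genes. Overlapping windows were merged for both densities, so they are not like for like. Counted per gene, the mean was 3.48 peaks, beside 3.34 over all genes. The density was 2.96 per 100 kb around ligand genes and 1.64 per 100 kb around Frizzled genes. 12 peaks were near 2 of the genes and were counted once here. The first 13485 lines of the list held 47 of the 96.

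The shared peaks come from ligand genes that lie side by side. WNT1 and WNT10B start 6587 bp apart on chromosome 12 and point away from each other. Together they had 6 peaks, 5 of which fell in both windows. Only the peaks at the starts of WNT1 and WNT10B had one of the pair as the nearest gene, and the rest lay at PRKAG1, DDN, FKBP11 and an unnamed gene. WNT6 and WNT10A, 6618 bp apart on chromosome 2, shared all 5 of their peaks, of which 4 were nearest to WNT10A and 1 to WNT6. WNT3 and WNT9B, 46 bp apart on chromosome 17, had 7 peaks, of which 5 lay inside WNT3 and none in the body of WNT9B. WNT3A and WNT9A, 59065 bp apart on chromosome 1, shared none of their 12 peaks, and the 1 peak between them was the upstream peak of WNT3A.

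The basal domain peaks of these genes were compared with those of all genes for width and place in the list. Their median width was 1592 bp (95% interval of the median from order statistics 994 to 2325 bp, n = 15), and that of all 10446 basal domain peaks was 1294 bp. 6 of the 15 (40.0%) were wider than 2 kb, beside 17.7% of all. Their median place was line 24060 (interval 10054 to 25030), beside line 10930 for all basal domain peaks. 10 of the 15 (66.7%) stood past line 20000, beside 18.4% of all. The late peaks belonged to WNT2B, WNT3, WNT3A, WNT4, WNT7A, WNT10B, FZD4, FZD5, FZD7 and FZD10, while those of WNT7B, FZD1, FZD6, FZD8 and LRP6 stood before line 13485. The widths of the late peaks ran from 636 bp for WNT3 to 2941 bp for FZD10. The 81 peaks outside the basal domains had a median place of line 13202, beside 15131 for all peaks in no basal domain, and a median width of 1163 bp, beside 759 bp.

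**Figure D3:**
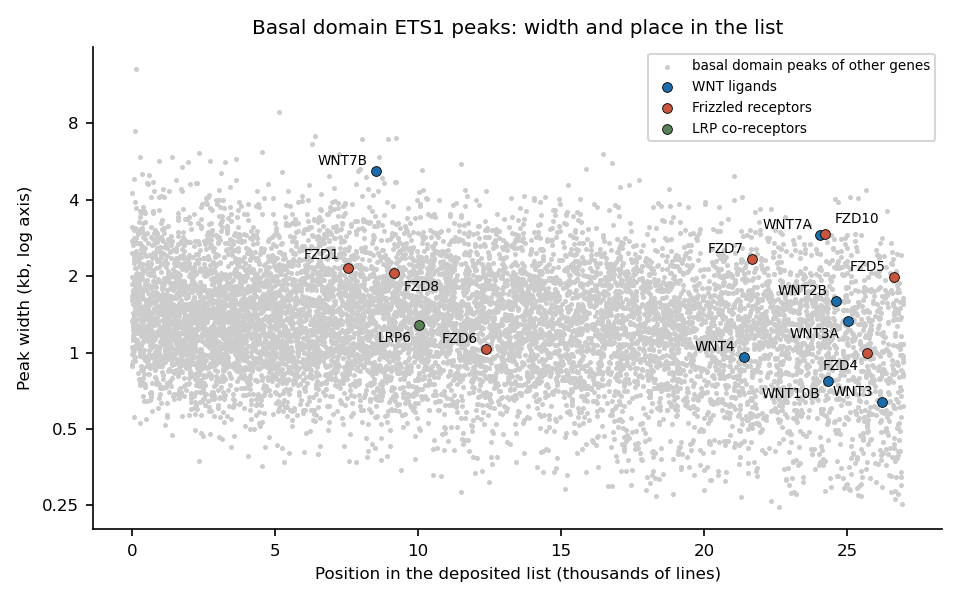
Width in kb, on a log axis, against place in the deposited list for each basal domain peak. Coloured points are the 15 peaks of the WNT, FZD and LRP genes and grey points those of other genes; 10 of the 15 lie past line 20000, where 18.4% of all basal domain peaks lie.

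The base composition of the promoters was examined because ETS1 peaks were unequally spread over it. A promoter, taken as 500 bp on each side of the TSS, was called CpG-rich at a GC content of at least 50% and a ratio of observed to expected CpG of at least 0.6. Of all CpG-rich genes 74.2% had a basal domain peak, and of the others 21.9%. 25 of the 31 genes (80.6%) were CpG-rich, beside 65.1% of all genes. 14 of these 25 had a basal domain peak (56.0%), as had 1 of the 6 others, WNT10B. All 10 Frizzled genes were CpG-rich, and 7 of them had a peak. Of the 13 CpG-rich ligand genes 6 had a peak (46.2%).

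Median composition was close in the genes with and without a peak, while the lowest values belonged to genes without one. The median GC content was 71.7% in the 15 genes with a peak and 68.9% in the 16 without, and the median CpG ratio was 0.843 and 0.818. The lowest GC content was 61.3% with a peak and 43.9% without. WNT9A, with the highest ratio of the 31 genes (0.973), was without a basal domain peak. The promoters of WNT8A and WNT8B had the lowest ratios, near 0.125, and neither had a peak.

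**Figure D4:**
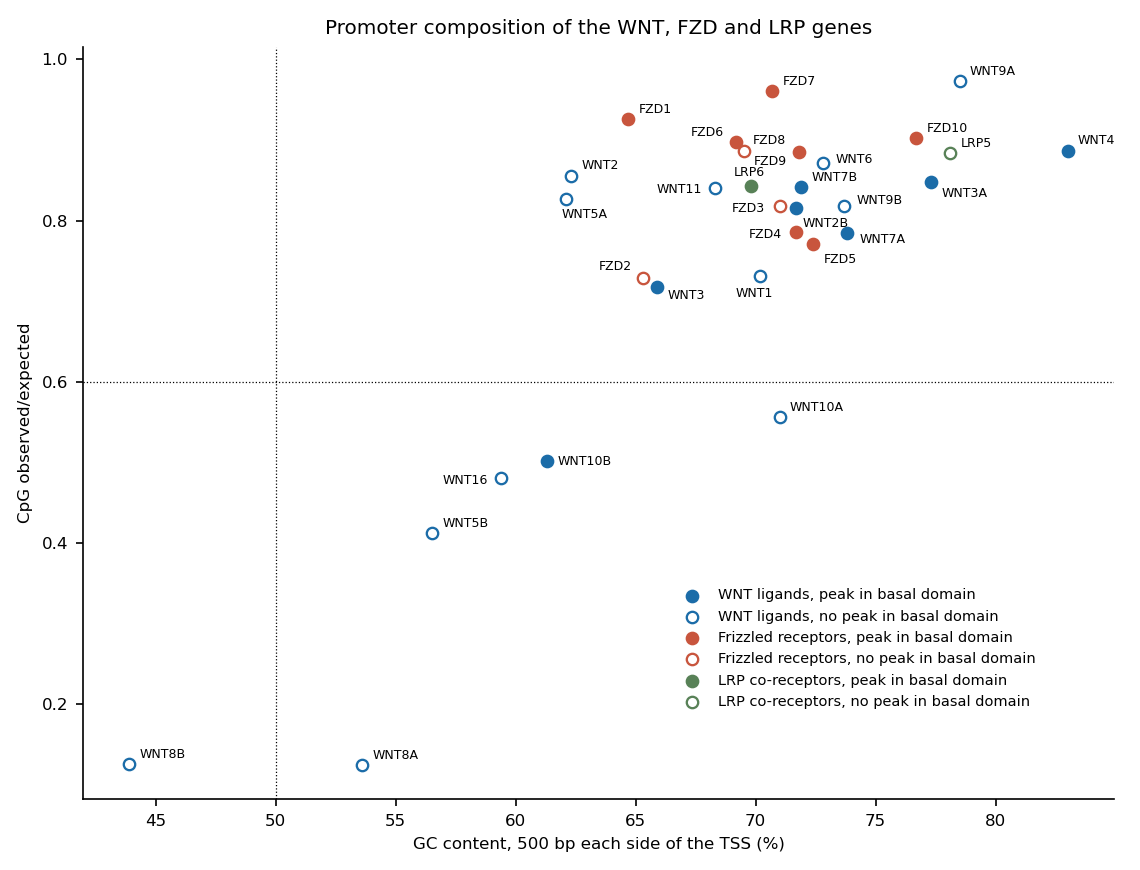
GC content (%) against the ratio of observed to expected CpG in 500 bp on each side of the TSS for the 31 genes, with filled symbols for genes with a basal domain peak. Dotted lines mark 50% GC and a ratio of 0.6; 14 of the 25 genes in the upper right have a peak, and WNT10B is the only one of the other 6 with a peak.

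ETS cores were counted in 600 bp at the midpoint of each peak. 82 of the 96 peaks held a core (85.4%, interval 77.0 to 91.1), beside 89.3% of all peaks. Such a hexamer is also frequent away from peaks, and in windows 5000 bp downstream the share was 70.8% for the 96 peaks and 75.6% for all. In the central 200 bp it was 39.6% (interval 30.4 to 49.6), beside 38.5% downstream, and 55.4% of all peaks. Of the 15 basal domain peaks 12 held a core in 600 bp (80.0%, interval 54.8 to 93.0), beside 87.7% of all basal domain peaks. Those of WNT7B, LRP6 and WNT3A did not, while each had a core elsewhere in the peak. The WNT7B peak had 12 over its 5176 bp. The letters CCGGAA, searched separately on both strands, were present in 3 of the 15 (20%, interval 7.05 to 45.2), beside 41.1% of all basal domain peaks.

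The letters TGANTCA, in which N is any base and which AP-1 factors bind, set basal domain and other peaks apart across the list. They were found within 600 bp in 9.60% of all basal domain peaks and 44.4% of all others. Of the 81 peaks outside the basal domains of the WNT, FZD and LRP genes 32 held a match (39.5%, interval 29.6 to 50.4). None of the 15 basal domain peaks held one, which allows a share of up to 20% when 3 counts are taken as the limit of a count of 0. The matches outside included the peak in intron 1 of WNT7B shown above and both upstream peaks of WNT4.

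The other genes of the pathway were read in 6 lists, by the basal domain rule. 37 of 68 had a peak (54.4%, interval 42.7 to 65.7), against the 56.0% of all genes. In the first 13485 lines 20 of the 68 had one, as had 36.4% of all genes. The share was highest for the cytoplasmic transducers and the destruction complex, with 12 of 14 genes (85.7%, interval 60.1 to 96.0). AXIN1, the scaffold of that complex, had 3 basal domain peaks, and CSNK1E, DVL2 and GSK3A had 2 each. AXIN2, a feedback inhibitor that the pathway itself induces, and APC2 had none. Of the nuclear factors 9 of 14 had a peak (64.3%), among them TCF7 and TLE3 with 2 each and BCL9L and CTBP1 with 1. BCL9, CTNNBIP1, LEF1, PYGO1 and TLE2 had none, and the nearest peak to the TSS of LEF1 was 343913 bp away.

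Of the secreted and membrane inhibitors 5 of 14 had a peak (35.7%, interval 16.3 to 61.2). These 5 were DKK1, DKK3, KREMEN1, KREMEN2 and SOST, with 1 basal domain peak each. DKK2, DKK4, FRZB, SFRP1, SFRP2, SFRP4, SFRP5, SOSTDC1 and WIF1, which include all 5 secreted Frizzled-related proteins of the list, had none. Of the R-spondins and the genes of receptor turnover 3 of 9 had a peak (33.3%), namely LGR4 and the ubiquitin ligases RNF43 and ZNRF3 that remove Frizzled from the membrane. LGR5, LGR6 and RSPO1 to RSPO4 had none. Of the genes for maturation, secretion and removal of ligands 2 of 6 had a peak, the WNT-cleaving proteases TRABD2A and TRABD2B. APCDD1, NOTUM, PORCN, which attaches the lipid, and WLS, which carries the ligands to the surface, had none, and the nearest peak to the TSS of WLS was 399711 bp away.

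Of the alternative receptors and planar polarity genes 6 of 11 had a peak (54.5%, interval 28.0 to 78.7). RYK had 2 basal domain peaks and CELSR1, PRICKLE1 and PTK7 had 1 each. CELSR1, a cadherin of planar polarity, had 11 peaks in its gene body. CELSR2, CELSR3, PRICKLE2 and the receptors ROR1 and ROR2 had none in the basal domain. The intervals of all 6 lists are wide, and only that of the transducers lay wholly above 56.0%. This is no test, since the transducers had the highest share of the 6 lists, which were chosen with earlier results known. The interval of the transducers held the 74.2% of CpG-rich genes, and the promoter composition of these lists was not examined.

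**Figure D5:**
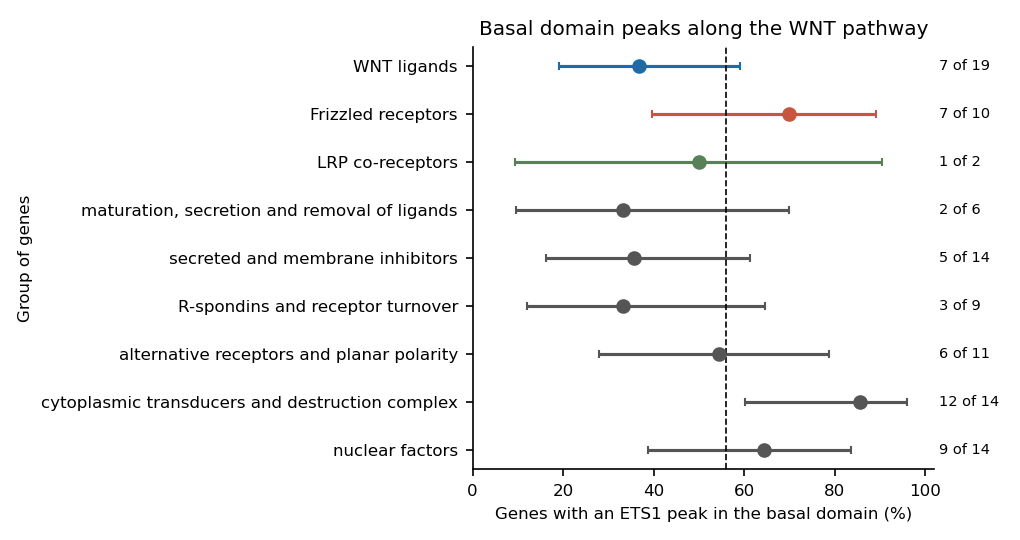
Percentage of genes with an ETS1 peak in the basal domain for each list of pathway genes, with 95% Wilson intervals as error bars. The dashed line is the 56.0% of all protein-coding genes. The share of the cytoplasmic transducers (85.7%), the highest of the groups, lies above it with its interval. That of the WNT ligands (36.8%) lies below it with an interval that crosses it. The lists were chosen with earlier results known, and no test was run.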

How the data were processed

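ETS1 was measured by ChIP-Seq in 3 samples of untreated SCC25 cells, grouped by the antibody in the labels (C20, 2 samples; 501A, 1 sample). Per the labels and the study's methods, the authors mapped single-end reads to hg19 with Bowtie 1.1.1, dropped reads with several loci, merged files with SAMtools 1.3, called peaks with MACS2 and kept those reproducible by IDR analysis. Dropping such reads lowers signal in repeats. What the authors deposited is 1 pooled list of peak positions, with no signal, score or count. The paper gives a range of reads per sample, but the depth behind each peak is unknown. Replicates and antibodies could not be compared, and no test could be run.

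Peaks were placed by their midpoint against GENCODE 44 genes on GRCh37, using canonical transcripts, 1 gene per symbol on chromosomes 1 to 22, X and Y (19856 genes). The basal domain is that of GREAT. The study ran GREAT with its default settings, which extend past the basal domain, so genes assigned here need not be those of the study. Shares have 95% Wilson intervals and medians 95% intervals from order statistics. Motifs and base composition were read from GRCh37. Scripts ran in Python 3.11.15 with pandas 2.3.3, scipy 1.17.1 and pysam 0.24.0, and were tested on simulated data, where 1000 of 1000 planted genes and 200 of 200 planted cores were found. Every WNT, FZD and LRP gene of the rule was described. From each pathway list up to 4 genes with most basal domain peaks, ties by symbol, and all genes without one were named. SOST, which tied with the 4 inhibitors so chosen, was named too. The sequence of 1 window is not reported here. The genes and lists were chosen with earlier results of these data known. Alternatives were other starts, overlap in place of midpoints, other distances, a shorter motif window, a stricter motif and the first 13485 lines of the list.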

Additional observations from a re-analysis of the deposited data

How the results depend on the processing

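Of 31 alternative settings over 9 results, 22 left the value within the limits used (a count within 1.5 times, or a value within its interval) and 9 moved it. Using the first 13485 lines of the list lowered the genes with a basal domain peak from 15 to 5. Those with a midpoint within 500 bp fell from 9 to 4, and the peaks in or within 50 kb from 96 to 47. The other pathway genes with a basal domain peak fell from 37 to 20. A shorter list can only lower such counts. By the basal domain rule the WNT, FZD and LRP genes went from 48.4% to 16.1%, and all genes from 56.0% to 36.4%. Why these drops differ was not tested. The genes with a peak within 500 bp rose to 17 when any overlap was enough and to 16 at 1500 bp. Within 10 kb of the genes 57 peaks were left of 96. The share of peaks with an ETS core was 85.4% by the main rule, and a shorter window or fewer words can only lower it. It was 39.6% in the 200 bp window, beside 55.4% of all peaks. With AGGAAG or CGGAAG only it was 74.0%, beside 74.8% of all peaks. Under the other settings the basal domain count ran from 13 (1 kb on each side) to 21 (10 kb on each side). These are 41.9% and 67.7% of the WNT, FZD and LRP genes, beside 52.7% and 62.4% of all genes. No paired analysis was possible because the 3 samples are merged into 1 list with no value per sample, which also leaves no sample to leave out.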

Other observations

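A peak in intron 1 of WNT9A, a ligand of joint development, stood out among the 96 peaks by its sequence. It was centred 12828 bp after the TSS, was 811 bp wide and stood at line 12079 of the list. In its central 600 bp the letters TGANTCA occurred 14 times, and 2 of all 26961 nuclear peaks held at least 14. It held no ETS core over its whole width. The matches recur in a tandem repeat, of which 200 bases of GRCh37 are given on the strand of the gene with the matches in capitals. The peak was chosen after its values were seen.
WNT9A (chr1:228122700-228122899, minus strand): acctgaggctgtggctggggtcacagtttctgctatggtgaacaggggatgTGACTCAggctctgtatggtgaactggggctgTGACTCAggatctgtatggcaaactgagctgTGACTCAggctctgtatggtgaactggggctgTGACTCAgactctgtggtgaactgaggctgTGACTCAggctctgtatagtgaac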
